A study of Mus musculus with 14 samples.

Results

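The first days after renal ischemia/reperfusion injury (IRI) in the mouse kidney were followed in 10 genes of the Wnt pathway: the ligands Wnt2b, Wnt4, Wnt5a, Wnt7b, Wnt9b and Wnt11, the target gene Axin2, the receptor Lgr4, its ligand Rspo3, and Dkk3 of the Dickkopf family. They were chosen by gene symbol, 10 of the 24411 symbols in the count files, and 9 of the 10 were among the 14300 genes that passed the filter on low counts. Bulk RNA sequencing was done on 14 kidney libraries from male C57/B6 mice of 8 weeks, with 4 libraries at day 0, 5 at day 1 and 5 at day 3 after IRI. The library names call the day 0 libraries controls, and whether these mice had a sham operation is not given in the sources used here. No label says whether libraries of a group came from separate mice, so the p-values measure the spread between these libraries, which may be technical. The libraries held 12485579 to 20476979 reads on genes, and levels are given as CPM, reads of a gene relative to all reads on genes, with library sizes scaled by the trimmed mean of M values (TMM).

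The number in a library's name has 1 digit in every day 0 library, in 3 of day 1 (replicates 3 to 5) and in 2 of day 3 (replicates 4 and 5). The remaining 5 names carry 3 digits. What this format marks is not given in the sources used here. It is treated as a possible technical batch, and for the 3-digit libraries it cannot be told apart from the day when they are set against day 0. Replicate 4 of day 0 stood apart from replicates 1 to 3 in 5 of the 10 genes, so the calls that it ended or added among the 10 genes, and the counts of the pathway lists, are also given without it. That library was picked by these same values. For a gene that was high in it, leaving it out lowers the day 0 level, so a rise called without it is partly built in. The kidney was recognisable in all 14 libraries: the summed level of 8 proximal tubule genes was 1890 CPM or more in each of them, and none of the 8 was at 0 in any.

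Wnt proteins are secreted, lipid-modified signals that bind Frizzled receptors and, on the canonical branch, the co-receptors Lrp5 and Lrp6, which spares beta-catenin from the Axin-containing destruction complex and lets it act with TCF/LEF factors on genes such as Axin2. R-spondins bind Lgr receptors and raise the number of Frizzled receptors at the cell surface. In the developing kidney Wnt9b from the ureteric epithelium induces Wnt4 in nephron progenitors, Wnt11 marks the ureteric tips and Wnt7b the collecting duct trunk, and in adult kidneys the pathway is known for its reactivation after injury and in fibrosis.

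The promoters of 6 of the 10 genes, with 7 start sites, were found in the RefSeq table for GRCm38.p6, which gives the sequence around each start site. They were searched on both strands, over the 250 bases before the start, for the TCF/LEF core CTTTGA and its reverse complement. The core was present in 13.8% of the 32851 promoters of that table and in 1 of the 7 start sites, the upstream one of Wnt11. Of these windows 3 are shown because they belong to the feedback target of the pathway, to the ligand with the largest change below, and to the ligand whose window held the core. Capitals mark the core or its reverse complement, and the other letters are in lower case. The Axin2 window is chr11:108920099-108920348 (plus strand), the Wnt9b window is chr11:103749822-103750071 (minus strand, written 5′ to 3′ along the gene) and the Wnt11 window is chr7:98834862-98835111 (plus strand).
Axin2: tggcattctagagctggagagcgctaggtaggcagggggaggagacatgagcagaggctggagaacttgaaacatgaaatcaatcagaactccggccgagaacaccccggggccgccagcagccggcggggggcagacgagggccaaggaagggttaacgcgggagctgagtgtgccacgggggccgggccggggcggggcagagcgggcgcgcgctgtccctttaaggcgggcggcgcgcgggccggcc
Wnt9b: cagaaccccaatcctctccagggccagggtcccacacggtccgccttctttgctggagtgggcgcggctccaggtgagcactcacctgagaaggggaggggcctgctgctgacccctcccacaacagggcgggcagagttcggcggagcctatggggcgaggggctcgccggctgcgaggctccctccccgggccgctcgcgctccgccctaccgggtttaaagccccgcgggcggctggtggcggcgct
Wnt11: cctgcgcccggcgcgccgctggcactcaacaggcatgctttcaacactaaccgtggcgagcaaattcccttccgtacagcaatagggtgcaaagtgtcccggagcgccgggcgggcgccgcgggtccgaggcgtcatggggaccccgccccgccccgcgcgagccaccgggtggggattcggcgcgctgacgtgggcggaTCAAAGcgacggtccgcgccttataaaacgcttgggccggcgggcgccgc
The Axin2 and Wnt9b windows did not hold these 6 letters in this order on either strand, which says nothing about sites elsewhere. The Wnt11 core began 50 bases before the start site.

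Levels between genes were compared as CPM per kilobase of exon, with exon lengths from GENCODE M21. On that scale Lgr4, the R-spondin receptor, had a mean of 25.4 ± 5.99 (SD, n = 14), Dkk3 8.20 ± 2.36 and Wnt7b 3.30 ± 1.90 CPM per kilobase. Wnt5a followed with 1.57 ± 0.749, Wnt9b with 0.963 ± 1.27 and Wnt4 with 0.817 ± 0.704 CPM per kilobase. The mean of Wnt9b was above that of Wnt4 at day 0 (2.36 and 0.682 CPM per kilobase) and below it at day 1 (0.392 and 1.04) and day 3 (0.413 and 0.701). At day 0 it was also above that of Wnt5a (1.9), so the order over all 14 libraries is not that of each day. Rspo3 (0.238 ± 0.223), Axin2 (0.173 ± 0.129), Wnt11 (0.172 ± 0.111) and Wnt2b (0.0231 ± 0.0181 CPM per kilobase) were the least abundant. The range of Lgr4 over the 14 libraries, 16.7 to 34.3 CPM per kilobase, did not meet that of Dkk3, 5.27 to 13.8. The ranges of each further pair of neighbours in this order overlapped. Summed over the 6 ligands, the level was 37.5 to 88.2 CPM at day 0, 13.1 to 63.7 CPM at day 1 and 17.5 to 44.4 CPM at day 3, and Wnt7b gave 32.9% to 65.5% of that sum. In every day 3 library Wnt5a gave the larger share of the CPM sum, 43% to 49.6% against 32.9% to 38.8% for Wnt7b. The same held in replicate 3 of day 0 (38.8% against 37.6%). This sum does not allow for exon length, and per kilobase the day 3 mean of Wnt5a, 1.81, was below that of Wnt7b, 2.24.

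**Figure D1:**
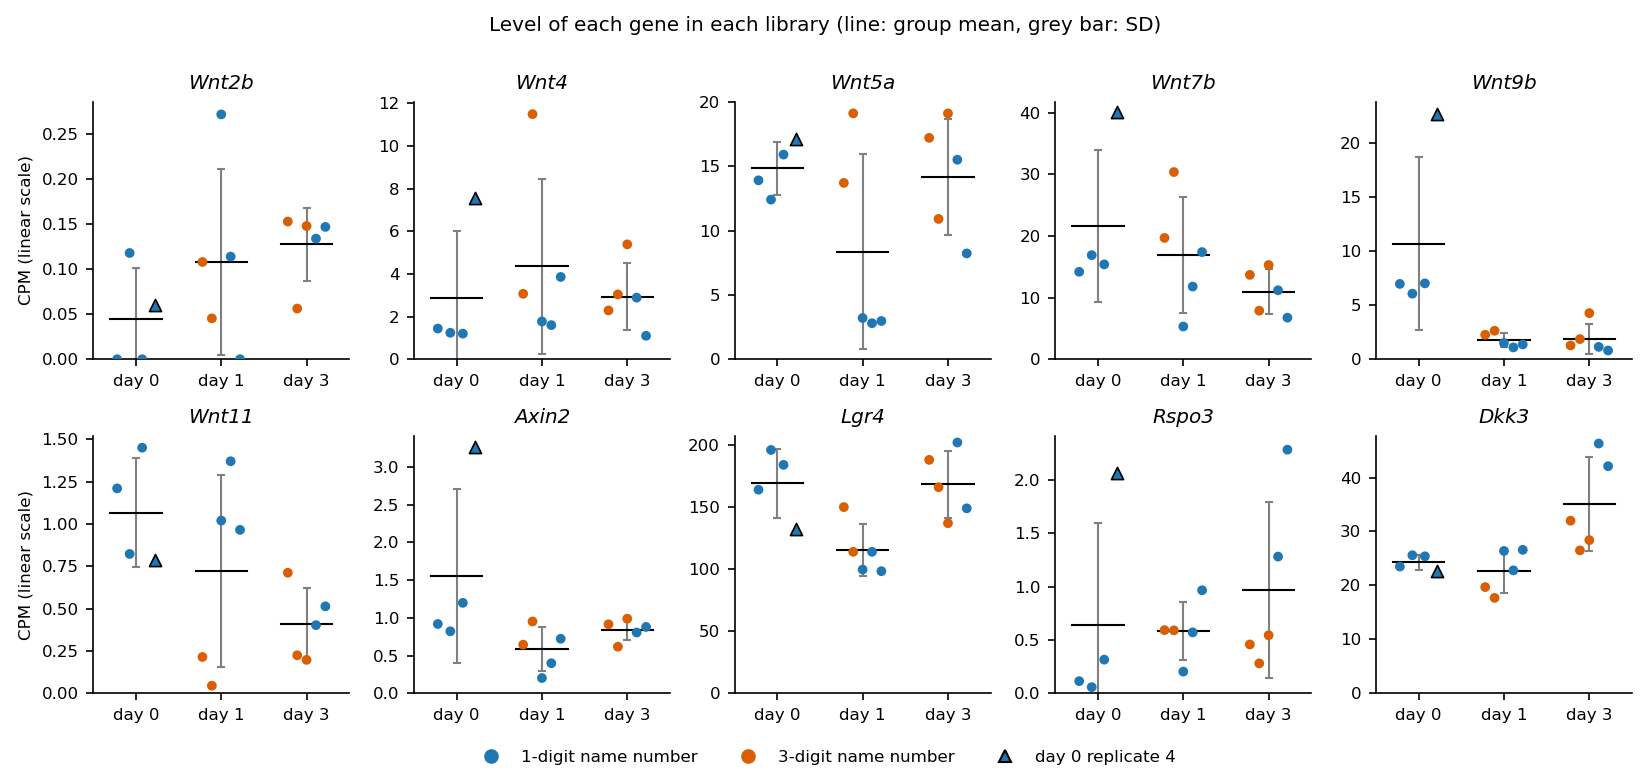
Level of each of the 10 genes in each of the 14 libraries in CPM on a linear scale that starts at 0, by day. Points are libraries, coloured by the format of the name number, the triangle is replicate 4 of day 0, the line is the group mean and the grey bar is the SD. Wnt9b at days 1 and 3 stays at or below 4.26 CPM, under every day 0 library.

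Against day 0, 3 of the 9 tested genes changed at day 1 at an adjusted p under 0.05 and all 3 fell: Wnt9b, Axin2 and Lgr4. Of all 14300 genes tested 42.1% were called in this comparison, 23.3% as higher and 18.7% as lower. At day 3, 2 of the 9 were called, Wnt9b as lower and Dkk3 as higher, against 33.3% of all genes (19.5% higher and 13.8% lower). Between day 3 and day 1, 2 of the 9 were called, Lgr4 and Dkk3, both higher at day 3, against 15.9% of all genes. The shares against day 0 were below those of all genes, and the share between day 3 and day 1 was not. With replicate 4 of day 0 set aside, 2 of 9 were called at day 1, Wnt9b and Lgr4 (34.5% of 14478 genes), and 2 of 9 at day 3, Wnt9b and Rspo3 (25.9%). By library totals without TMM the calls at day 3 were higher in 73.8% against 58.5% here, and between day 3 and day 1 in 77.9% against 53.6%, with the median of all genes at 0.19 and 0.18 in place of 0.05 and 0.02. The day 1 and day 3 comparisons share the day 0 libraries. In bulk tissue, fewer cells of a type and less RNA per cell cannot be told apart.

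**Figure D2:**
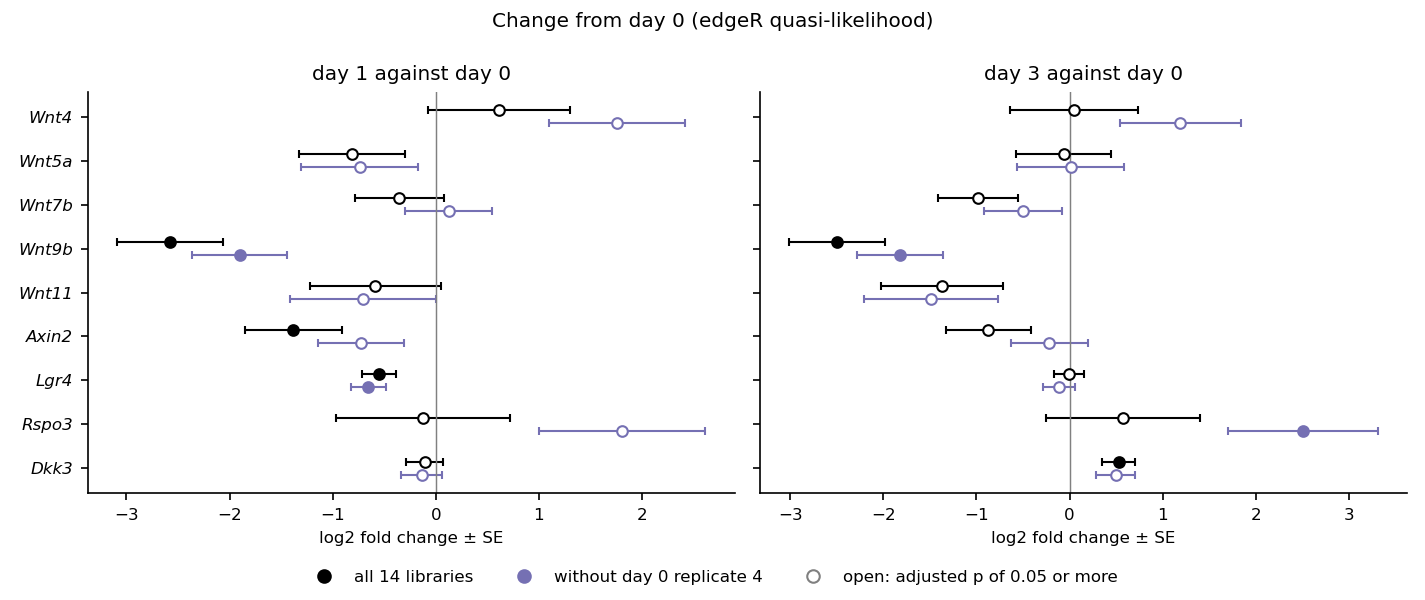
Log2 fold change of the 9 tested genes at day 1 (left) and day 3 (right) against day 0, with its SE, from edgeR's quasi-likelihood fit of all 14 libraries (black) and of the 13 without replicate 4 of day 0 (purple). Filled points have an adjusted p under 0.05. Wnt9b is filled in all 4 fits, Axin2 only with all libraries at day 1, and Rspo3 only without replicate 4 at day 3.

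Among the ligands, Wnt9b fell the most. Its level at day 0 was 6.96, 6.06, 7.01 and 22.7 CPM in replicates 1 to 4. At day 1 it was 2.26, 2.63, 1.5, 1.09 and 1.37 CPM in replicates 1 to 5, and at day 3 it was 1.27, 1.86, 4.26, 1.14 and 0.808 CPM. Every library of both later days lay below every day 0 library. On the log2 scale the change was -2.58 ± 0.52 (SE) at day 1 (5.97-fold lower, adjusted p = 0.00165) and -2.5 ± 0.51 at day 3 (5.64-fold lower, adjusted p = 0.00266). Leaving out that library, it was -1.90 (3.74-fold lower, adjusted p = 0.00784) at day 1 and -1.82 (3.54-fold lower, adjusted p = 0.0124) at day 3. The exact permutation test of log2 CPM over the libraries gave a two-sided p of 0.00794 at day 1, the smallest that 4 against 5 libraries allow, and 0.0159 at day 3. Groups that did not overlap were seen in 1 of the 9 genes at day 1, Wnt9b, against 42.0% of all genes, and in 3 of the 9 at day 3, Wnt9b, Wnt11 and Dkk3, against 33.4%.

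The 9 collecting duct genes summed to 959 to 1220 CPM at day 0, 415 to 911 CPM at day 1 and 269 to 846 CPM at day 3, and 3 of them were called as lower at day 1 and 5 at day 3 (2 and 4 without replicate 4 of day 0), beside 18.7% and 13.8% of all genes. The loop of Henle and distal tubule list (4 and 6 of 8 lower, with or without it) and the proximal tubule list (2 and 4 of 8 lower, and 2 and 2 without that library) also held lower genes at both days. The part of these lists in the Wnt9b values was not tested. Day 3 and day 1 differed in Wnt9b by a log2 value of 0.08 ± 0.49 (adjusted p = 0.925).

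Wnt7b, a ligand of the collecting duct trunk in development, was the most abundant ligand per kilobase. It was measured at 14.2, 16.9, 15.4 and 40.1 CPM at day 0, at 19.7, 30.4, 5.31, 11.8 and 17.4 CPM at day 1, and at 13.7, 7.88, 15.3, 11.2 and 6.75 CPM at day 3. The groups overlapped, and the highest library was again replicate 4 of day 0. Its log2 change from day 0 was -0.35 ± 0.43 at day 1 (adjusted p = 0.527) and -0.98 ± 0.43 at day 3 (adjusted p = 0.0927). If replicate 4 of day 0 was left out, these were 0.13 (adjusted p = 0.832) and -0.50 (adjusted p = 0.386). With name format as a term in the fit Wnt7b was called at day 3 (-1.47, adjusted p = 0.0144), and it was also called, just under the threshold, in the fit of only the 2 days compared (-0.995, adjusted p = 0.05 after rounding). The GENCODE annotation holds the antisense gene AU022754 over the start of Wnt7b, and in 13 of 14 libraries its strand-specific count was above the count that ignores strand.

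Wnt5a, a ligand known mainly for beta-catenin-independent signalling, split the libraries of day 1. It was at 13.9, 12.4, 15.9 and 17.1 CPM at day 0. At day 1 it was at 13.7 and 19.1 CPM in the 3-digit replicates 1 and 2, and at 3.20, 2.80 and 2.97 CPM in the 1-digit replicates 3 to 5. At day 3 it was at 17.2, 10.9, 19.1, 15.5 and 8.22 CPM. The 3 low libraries of day 1 lay under every other library of the study, and the other 2 lay among the day 0 and day 3 libraries. Taken over all 5, day 1 differed from day 0 by a log2 value of -0.81 ± 0.51 (adjusted p = 0.212), and day 3 by -0.06 ± 0.51 (adjusted p = 0.935). Without replicate 2 of day 1, the highest of that day, Wnt5a was called as lower at day 1 (-1.38, adjusted p = 0.0269) and as higher at day 3 than at day 1 (1.31, adjusted p = 0.0474). With name format as a term Wnt5a was called at day 1 (-1.75, adjusted p = 0.00293). That fit takes the format effect to be the same on both days. For Wnt5a the test of a difference between the 2 format effects was called (-2.05, adjusted p = 0.00537), so -1.75 is not the change within either format.

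Wnt4, which drives nephron epithelium formation in development, was at 1.44, 1.24, 1.20 and 7.56 CPM at day 0. It was at 3.07, 11.5, 1.77, 1.60 and 3.86 CPM at day 1 and at 2.29, 3.04, 5.39, 2.89 and 1.10 CPM at day 3. All 5 libraries of day 1 were above replicates 1 to 3 of day 0, and 1 of them, replicate 2, was also above replicate 4. Its log2 change was 0.62 ± 0.69 at day 1 (adjusted p = 0.487) and 0.05 ± 0.69 at day 3 (adjusted p = 0.962). Once replicate 4 of day 0 was removed it was 1.76 ± 0.66 (3.38-fold, adjusted p = 0.0545) and 1.19 (2.28-fold, adjusted p = 0.189).

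Wnt11, the ligand of the ureteric tips, was low throughout, with 1 to 24 reads in a library. It was at 1.21, 0.823, 1.45 and 0.786 CPM at day 0. On day 1 it was at 0.215 and 0.0454 CPM in the libraries with 3 digits and at 1.02, 1.37 and 0.965 CPM in those with 1 digit, and on day 3 the levels were 0.712, 0.225, 0.198, 0.403 and 0.514 CPM. Every day 3 library was under every day 0 library, and the 1-digit libraries of day 1 were within the day 0 range. Its log2 change was -0.58 ± 0.64 at day 1 (adjusted p = 0.475) and -1.37 ± 0.66 at day 3 (2.58-fold lower, adjusted p = 0.12), and the exact permutation test over the libraries at day 3 gave p = 0.0159, two-sided and not adjusted for the number of genes. It was called at day 3 in the fit of only the 2 days compared (adjusted p = 0.0274) and with only the 1-digit libraries of the later days (adjusted p = 0.0415) and without replicate 2 of day 1 (-1.37, adjusted p = 0.0477), and at day 1 with only the 3-digit ones (-3.02, adjusted p = 0.0114).

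Wnt2b did not pass the filter on low counts. Its count on the strand used here was 0 to 4 reads in a library, with 0 reads in replicates 1 and 3 of day 0 and replicate 5 of day 1. A count of 0 allows a level of up to 0.136 to 0.241 CPM, taken as 3 reads, depending on the library. The count that ignores strand was 2 to 21 reads, and in 11 of 14 libraries more of these reads lay off the strand used than on it. With no filter it was tested and not called at either day (adjusted p of 0.359 and 0.287).

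Axin2 is both a scaffold of the destruction complex and a direct target of beta-catenin, and it is widely read as a measure of canonical signalling. It was at 0.920, 0.823, 1.20 and 3.26 CPM at day 0 (16, 14, 19 and 54 reads). At day 1 it was at 0.646, 0.953, 0.204, 0.400 and 0.724 CPM (3 to 21 reads) and at day 3 at 0.916, 0.619, 0.990, 0.807 and 0.881 CPM (11 to 20 reads). Replicate 4 of day 0 was the highest library, and replicate 2 of day 1 and 3 of the 5 day 3 libraries lay within the range of replicates 1 to 3 of day 0. Axin2 fell at day 1, with a log2 change of -1.38 ± 0.47 (2.60-fold lower, adjusted p = 0.0286). Minus replicate 4 of day 0 it was -0.72 ± 0.42 (1.65-fold lower, adjusted p = 0.191), so that call rests on this library. Leaving out replicate 3 or replicate 4 of day 1 also ended the call, with adjusted p of 0.0543 and 0.065, as did a replicate block (-1.305, adjusted p = 0.0846) and fits of only the 2 days compared (0.0533) or only the 3-digit libraries of the later days (-0.94, adjusted p = 0.234). At day 3 it was -0.87 ± 0.46 (adjusted p = 0.154), and -0.22 (adjusted p = 0.721) without replicate 4 of day 0.

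Lgr4, which binds R-spondins and was the most abundant of the 10 genes, was at 164, 196, 184 and 132 CPM at day 0. It was at 150, 114, 99.7, 114 and 98.4 CPM at day 1 and at 188, 166, 137, 202 and 149 CPM at day 3. Replicates 2 to 5 of day 1 were under every day 0 library, and replicate 1 of day 1 lay among the day 0 and day 3 libraries. The change at day 1 was -0.55 ± 0.16 on the log2 scale (1.46-fold lower, adjusted p = 0.0157), and -0.65 (adjusted p = 0.0108) without replicate 4 of day 0. Without replicate 2 of day 0 the adjusted p was 0.0571, and with only the 3-digit libraries of the later days it was 0.175 at a log2 fold change of -0.35. From day 1 to day 3 Lgr4 rose by 0.55 ± 0.16 on the log2 scale (1.46-fold, adjusted p = 0.0305), a call that was lost when any one of replicates 3, 4 or 5 of day 1 or replicates 1 or 4 of day 3 was left out (adjusted p from 0.0663 to 0.077). The call was also lost in the fit of only these 2 days, which called 0 of the 8 genes tested. Day 3 did not pass the test against day 0, with a log2 fold change of -0.0046 ± 0.16 (adjusted p = 0.985).

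Rspo3, an R-spondin that amplifies Wnt signals through Lgr receptors, was counted with 2, 1, 5 and 34 reads at day 0, or 0.115, 0.0588, 0.316 and 2.06 CPM. It was at 0.592, 0.590, 0.204, 0.571 and 0.965 CPM at day 1 (3 to 13 reads) and at 0.458, 0.281, 0.544, 1.28 and 2.28 CPM at day 3 (5 to 31 reads). With replicate 4 of day 0 the groups overlapped. Without it, 4 of 5 libraries at each later day were above the highest remaining day 0 library. Rspo3 at day 3 gave a log2 change of 0.57 ± 0.83 (adjusted p = 0.615) with all libraries and 2.5 ± 0.80 (5.67-fold higher, adjusted p = 0.0356) without replicate 4. The day 1 values were -0.13 ± 0.84 (adjusted p = 0.915) and 1.81 ± 0.81 (3.49-fold, adjusted p = 0.0965). Replicates 1 to 3 of day 0 held 1 to 5 reads, so a fold against them depends strongly on single reads. Replicate 4 was set aside for its high level in this and other genes, so the values without it are no independent support for a rise.

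Dkk3 is a secreted member of the Dickkopf family whose effect on Wnt signalling is known to vary with the tissue. It was at 23.5, 25.6, 25.4 and 22.7 CPM at day 0. Day 1 gave 19.7, 17.7, 26.4, 22.8 and 26.6 CPM, and day 3 gave 32.0, 26.5, 28.4, 46.3 and 42.1 CPM. Every day 3 library was above every day 0 library, and the 2 highest were the 1-digit libraries. Dkk3 rose at day 3 by 0.53 ± 0.18 on the log2 scale (1.44-fold higher, adjusted p = 0.0369). The adjusted p rose to between 0.0535 and 0.0941 when any day 0 library, replicate 1 of day 1 or replicate 4 or 5 of day 3 was left out (0.0896 at 0.49 without replicate 4 of day 0). The call was also lost with the replicate number as a block (0.43, adjusted p = 0.0844) and with no filter on low counts (0.49, adjusted p = 0.0623). With only the 3-digit libraries of the later days the change at day 3 was 0.25 (adjusted p = 0.0975), and at day 1 Dkk3 was then called as lower (-0.38, adjusted p = 0.0365). Against day 1 Dkk3 was higher at day 3 by 0.63 ± 0.17 on the log2 scale (1.55-fold, adjusted p = 0.0238), with adjusted p of 0.0508 without replicate 4 of day 1 and 0.0587 without replicate 4 of day 3. The fit of only these 2 days called 0 of the 8 genes tested, so the call of Dkk3 was lost there as well. The log2 change at day 1 was -0.11 ± 0.18 (adjusted p = 0.657).

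Within days 1 and 3, libraries with 3-digit names were then set against those with 1-digit names, with the 5 sets of libraries fitted as separate groups. At day 1, 3 of the 9 genes differed, against 35.0% of all genes: Wnt5a, Wnt11 and Dkk3. Wnt5a was higher in the 2 libraries with 3 digits than in the 3 with 1 digit, at 16.4 ± 3.84 and 2.99 ± 0.202 CPM (log2 2.45 ± 0.30, 5.48-fold, adjusted p = 2.16e-04). Wnt11 was lower in the 3-digit libraries, at 0.130 ± 0.120 against 1.12 ± 0.220 CPM (log2 -3.10 ± 0.70, 8.55-fold lower, adjusted p = 0.00509), and with replicate 2 left out the adjusted p was 0.0747. Dkk3 was lower in them, at 18.7 ± 1.38 against 25.3 ± 2.14 CPM (log2 -0.43 ± 0.14, adjusted p = 0.0254), and the call was lost without replicate 2, 3 or 5 of day 1 (adjusted p of 0.191, 0.0561 and 0.0662). By library totals without TMM the median of all genes in this comparison was 0.24 in place of 0.03, 73.1% in place of 53.1% of the calls were higher, the call of Dkk3 was lost (-0.22, adjusted p = 0.191) and Lgr4 passed (0.55, adjusted p = 0.0252) where it had not (0.34, adjusted p = 0.201). When replicate 4 of day 0 was left out, which changes the estimate of spread, Wnt4 (log2 1.61, adjusted p = 0.046) and Wnt7b (1.13, adjusted p = 0.0465) also passed at day 1, and Rspo3 at day 3 (-2.02, adjusted p = 0.0345).

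At day 3, 1 of the 9 genes differed by format, against 18.5% of all genes. Dkk3 was at 29.0 ± 2.79 CPM in the 3 libraries with 3 digits and at 44.2 ± 3.00 CPM in the 2 with 1 digit (log2 -0.61 ± 0.13, adjusted p = 0.0111, and 0.0657 without replicate 5 of day 3). It was thus lower in the 3-digit libraries on both days, and the test of a difference between the 2 days gave -0.17 ± 0.19 (adjusted p = 0.559). Wnt5a was at 15.7 ± 4.31 and 11.8 ± 5.12 CPM at day 3 (log2 0.41 ± 0.29, adjusted p = 0.325). The test of the difference between the 2 format effects called 1 of the 9 genes, Wnt5a (-2.05 ± 0.41, adjusted p = 0.00537), against 17.6% of all genes, and for Wnt11 it gave 2.83 ± 0.96 (adjusted p = 0.0567, and 0.049 or 0.0386 without replicate 2 or 3 of day 3). Rspo3 on day 3 was at 0.428 ± 0.134 CPM where names had 3 digits and at 1.78 ± 0.706 CPM where they had 1 (log2 -2.02 ± 0.96, adjusted p = 0.147).

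**Figure D3:**
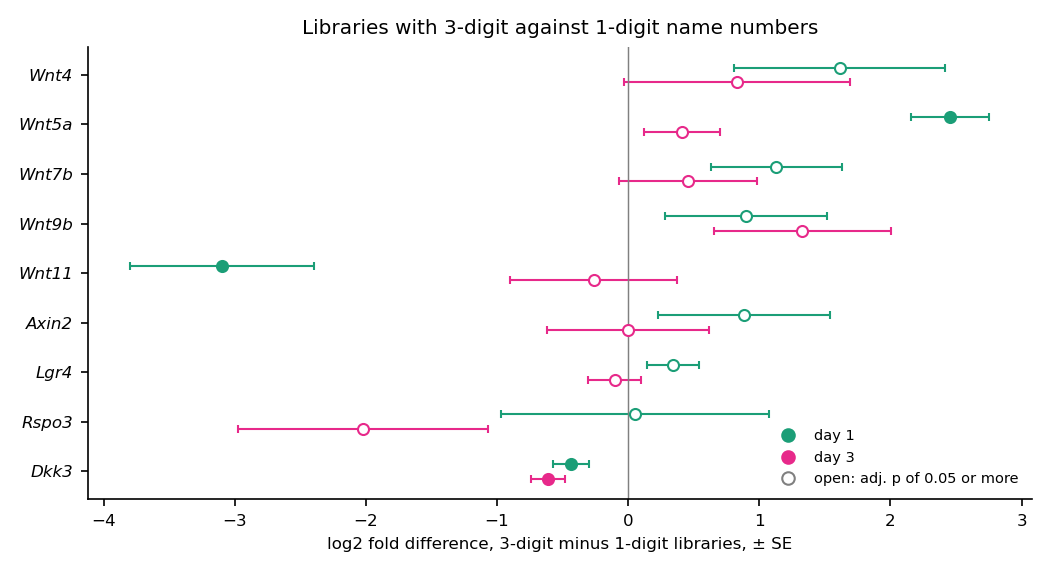
Log2 fold difference, with its SE, between libraries with 3-digit and 1-digit name numbers at day 1 (green) and day 3 (pink) for the 9 tested genes. Filled points have an adjusted p under 0.05. Wnt5a (2.45) and Wnt11 (-3.10) are filled at day 1, and Dkk3 lies below 0 and is filled on both days.

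Marker lists of other cell types and of the early stress response also differed between the formats. At day 1 the 8 immediate early genes summed to 2040 to 3660 CPM with 1 digit and 459 to 610 CPM with 3 digits, and the 8 proximal tubule genes to 8050 to 12500 and 2650 to 3380 CPM. At day 3 the order of the proximal tubule sums was the opposite, 1890 to 2870 CPM with 1 digit and 4610 to 10500 CPM with 3 digits. The 7 urothelium genes summed on day 1 to 5.04 to 8.68 CPM with 1 digit and to 17.8 and 107 CPM with 3 digits. Of the 7, 4 were called as higher with 3 digits, beside 35.0% of all genes called in either direction, 53.1% of those calls being higher. The 9 collecting duct genes summed on day 1 to 415 to 621 CPM with 1 digit and 838 to 911 CPM with 3 digits, and the 10 fibroblast and pericyte genes to 170 to 220 and 358 to 480 CPM. At day 3 the 6 smooth muscle genes summed to 776 to 958 CPM with 1 digit and 289 to 347 CPM with 3 digits, and at day 1 to 309 to 398 and 487 to 577 CPM, again in the opposite order. The 8 endothelium genes (617 to 947 against 226 to 401 CPM) and the 6 proliferation genes (99.3 to 123 against 340 to 629 CPM) also split by format at day 3. The part of these lists in the values of Wnt4, Wnt5a, Wnt7b, Wnt11, Rspo3 and Dkk3 was not tested.

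All day 0 libraries have 1-digit names, so the 1-digit libraries of the later days allow a comparison within 1 format. At day 1, 4 of the 9 genes fell, against 58.5% of all genes called: Wnt5a (log2 -2.31 ± 0.27, 4.95-fold lower, adjusted p = 1.73e-05), Wnt9b (-3.02 ± 0.55, 8.10-fold lower, adjusted p = 4.6e-04), Axin2 (-1.82 ± 0.56, adjusted p = 0.0135) and Lgr4 (-0.70 ± 0.17, adjusted p = 0.00362). Setting aside replicate 4 of day 0, 5 of the 9 were called (54.5% of all genes), namely these 4, with Axin2 at -1.17 (adjusted p = 0.0429), and Rspo3 at 1.78 (adjusted p = 0.0409). With replicate 4 of day 0 kept, the Axin2 call (-1.82) was lost without replicate 3 or replicate 4 of day 1 (adjusted p of 0.0569 and 0.0508). At day 3, 2 of the 9 were called, against 53.7% of all genes: Wnt9b (-3.44 ± 0.68, 10.8-fold lower, adjusted p = 0.00108) and Dkk3 (0.86 ± 0.12, 1.82-fold higher, adjusted p = 1.25e-04). Setting aside replicate 4 of day 0, 3 of the 9 were called (50.6% of all genes), Rspo3 being added at 3.41 ± 0.66 (adjusted p = 0.00129). Both Rspo3 calls rest on removing its highest day 0 library, which was picked by that level. Some other single libraries, left out, added Wnt7b as lower at day 1 (adjusted p = 0.0407, 1 library) or day 3 (0.0335 to 0.0475, 5 libraries), and Wnt11 (0.0462) or Wnt5a (0.0481) as lower at day 3 (1 library each).

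Between day 3 and day 1 within the 1-digit libraries, 3 of the 9 genes were higher at day 3, against 32.0% of all genes called: Wnt5a (1.99 ± 0.30, 3.96-fold, adjusted p = 6.05e-04), Lgr4 (0.75 ± 0.20, adjusted p = 0.0127, and 0.141 without replicate 4 of day 3) and Dkk3 (0.81 ± 0.13, adjusted p = 8.93e-04). Within the 3-digit libraries 1 of the 9 was called, Dkk3 (0.63 ± 0.14, adjusted p = 0.011), against 13.9%, and that call was lost without replicate 1 or replicate 2 of day 1 (adjusted p of 0.0675 and 0.0898). Wnt5a was at -0.06 ± 0.28 there (adjusted p = 0.905).

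Replicate 4 of day 0 differed from the other day 0 libraries in the members as follows. Rspo3 was 12.6 times the mean of replicates 1 to 3, Wnt4 5.85 times, Wnt9b 3.40 times, Axin2 3.33 times and Wnt7b 2.58 times. Wnt5a was 1.22 times, Dkk3 0.915 times, Lgr4 0.725 times and Wnt11 0.677 times that mean. Of 12998 genes with at least 1 CPM at day 0, 1.93% were at least 2-fold higher and 0.954% at least 2-fold lower in this library, after adding 0.5 CPM. The 7 urothelium genes summed to 56.2 CPM in it and to 3.94 to 12.1 CPM in the other day 0 libraries, with none of the 7 at 0 in any of the 4. Upk3a, a uroplakin, was at 11.1 CPM against 0.588 to 3.05 CPM. The collecting duct sum was 1220 CPM against 959 to 1110 CPM, and 3 of its 9 genes, Aqp2 (654 against 358 to 461 CPM), Avpr2 (40.6 against 27.5 to 34.3) and Gata3 (20.6 against 9.35 to 12), were above the other day 0 libraries. Aqp3, Aqp4, Hsd11b2 and Fxyd4 of that list were below them (127 against 131 to 142 CPM, 95.5 against 106 to 165, 158 against 169 to 193, and 27 against 30.4 to 35.2), so the higher sum rests on Aqp2, the vasopressin-regulated water channel. Replicate 2 of day 1, which had the highest Wnt4 level and the highest Wnt7b level of that day, had the highest urothelium sum of the study, 107 CPM, against 5.04 to 17.8 CPM in the other day 1 libraries. Replicate 4 of day 3 had a urothelium sum of 39.5 CPM with Wnt4 at 2.89 CPM and Wnt7b at 11.2 CPM. The part of urothelium in the levels of Wnt4, Wnt7b, Wnt9b, Axin2 and Rspo3 was not tested.

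**Figure D4:**
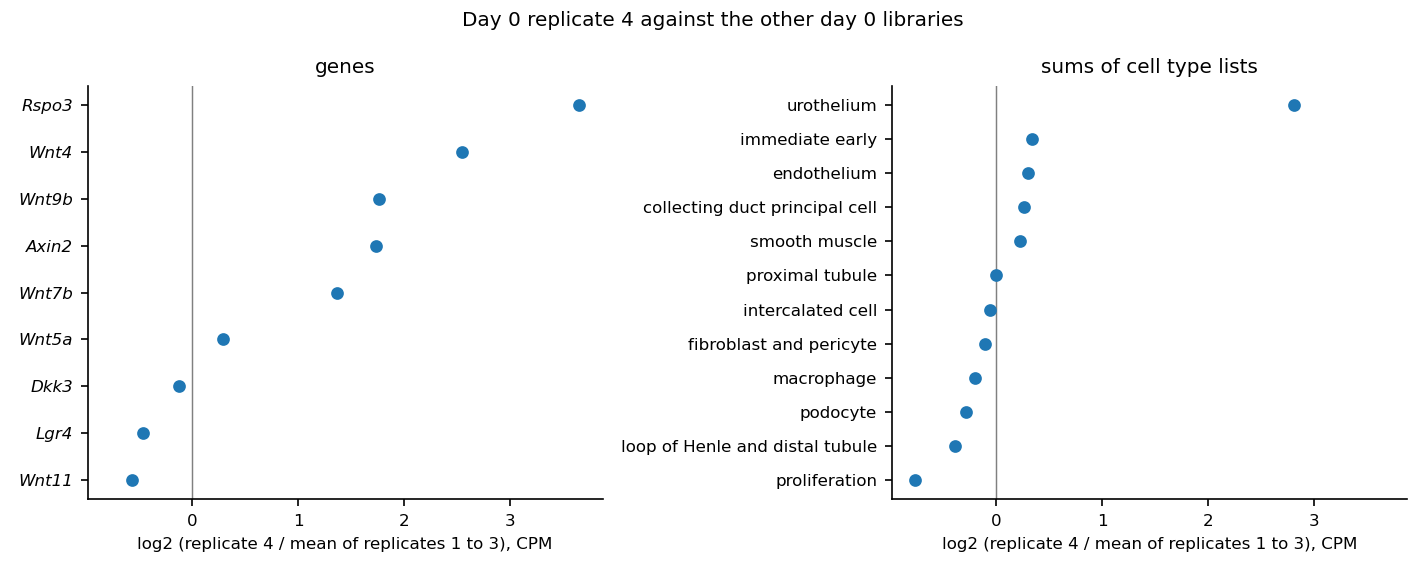
Log2 ratio of the level in replicate 4 of day 0 to the mean of replicates 1 to 3, for 9 of the 10 genes (left; Wnt2b, with 0 to 2 reads at day 0, is left out) and for the summed levels of 12 cell type and state lists (right). Each point is 1 gene or list. The urothelium list, at 7 times, is the highest of the 12 lists, and Rspo3, at 12.6 times, the highest gene.

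Across the 14 libraries, log2 levels of some members moved together. Wnt7b and Axin2 had the highest Pearson r, 0.73 (0.57 without replicate 4 of day 0), and Wnt7b with Wnt9b and with Wnt4 had 0.65 (0.45) and 0.64 (0.54). Wnt5a and Axin2 had an r of 0.66 (0.76 without replicate 4 of day 0), Wnt5a and Lgr4 0.65 (0.70), and Wnt4 and Wnt11 -0.67 (-0.79). Wnt9b and Axin2 had an r of 0.71 with all libraries and 0.45 without replicate 4 of day 0, and Wnt9b and Rspo3 -0.18 and -0.71. These are descriptions over 14 libraries that share the day and the name format. Among genes with a mean of at least 1 CPM, those most like Wnt5a were Impa2 (r = 0.969), Il17re (0.958) and Klhdc1 (0.957). Those most like Wnt9b were Med14 (0.943), 1190002N15Rik (0.942) and Ccdc92 (0.940), and the gene most like Wnt11 was Grsf1 (0.942). Wnt7b was most like Proser2 (0.906), and the uroplakin Upk3b was also among its 3 most like genes (0.877). Axin2 was most like AU021092 (0.902), Lgr4 like C1qtnf7 (0.907), Rspo3 like Ada (0.908), Dkk3 like Atxn7 (0.917) and Wnt4 like Lhfpl2 (0.855).

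The other genes of the pathway were read from 9 lists. Many calls in them had an adjusted p just under 0.05 and were lost without any of several libraries, not only without replicate 4 of day 0. Of the 19 ligand genes, 9 passed the filter, 7 had a mean of at least 1 CPM, and Wnt3 and Wnt8a had no read in any library. At day 1, 1 of the 9 rose and 2 fell (2 and 2 without replicate 4 of day 0, Wnt10a being added at 1.65, adjusted p = 0.0208), and at day 3, 1 fell with or without it, beside 42.1% of all genes called at day 1 and 33.3% at day 3 (the median log2 fold change of the 9 was -0.35 and -0.06, against 0.01 and 0.05 over all genes). Wnt9a was at 1.24 to 2.24 CPM at day 0 and at 1.91 to 12.6 CPM at day 1, with only replicate 3 of day 1 inside the day 0 range (log2 1.85 ± 0.56, adjusted p = 0.0166, and 0.0502 without replicate 2 of day 0). Wnt5b, a close relative of Wnt5a, was at 5.69 to 6.47 CPM at day 0 and at 1.09 to 3.63 CPM at day 1, without overlap (log2 -1.45 ± 0.39, adjusted p = 0.0087), and at 1.47 to 6.98 CPM at day 3 (adjusted p = 0.248). Wnt10a was at 0.294 to 1.57 CPM at day 0 and 0.724 to 2.63 CPM at day 1 (adjusted p = 0.089), and Wnt16 at 0.242 to 0.460 and 0.171 to 0.545 CPM (adjusted p = 0.805). Wnt2, Wnt6 and Wnt7a stayed at or below 1.03 CPM in every library and were not tested.

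Of the 9 tested secreted and membrane inhibitors, 1 rose and 3 fell at day 1, and 1 rose (Dkk3) and 3 fell at day 3, with medians of -0.23 and -1.07 against 0.01 and 0.05 over all genes. In all 4 of 9 were called at each day, beside 42.1% and 33.3% of all genes. Leaving out replicate 4 of day 0, none rose and 3 fell at each day. Sfrp1, a secreted Wnt-binding protein, was at 152 to 196 CPM at day 0, 16.3 to 33.8 CPM at day 1 and 21.4 to 105 CPM at day 3, without overlap with day 0 (log2 -2.59 ± 0.39, adjusted p = 2.47e-04, and -1.72 ± 0.38, adjusted p = 0.00402). Frzb, of the same family, was at 91.6 to 96.2 CPM at day 0 and 30.3 to 81.7 CPM at day 3 (log2 -1.08 ± 0.26, adjusted p = 0.00623). Dkk2 and Sostdc1 also fell at day 1 (-1.65, adjusted p = 5.55e-04, and -2.52, adjusted p = 0.0262), the call of Sostdc1 being lost without any of 5 libraries (adjusted p up to 0.0559), and these 2 were picked after their values were seen. Of 10 Frizzled receptors and co-receptors 1 rose and 3 fell at day 1 and 2 rose at day 3, shares below those 42.1% and 33.3% of all genes. Leaving out replicate 4 of day 0, only Lrp6 was called, at day 1. Lrp6, a co-receptor, was at 176 to 226 CPM at day 0 and 104 to 133 CPM at day 1 (log2 -0.81 ± 0.14, adjusted p = 4.97e-04), and at 140 to 207 CPM at day 3 (adjusted p = 0.104). Fzd4 fell at day 1 (-0.44, adjusted p = 0.0338) and rose at day 3 (0.48, adjusted p = 0.0311), but both calls were lost when any day 0 library was left out (0.0525 at -0.47 and 0.0787 at 0.45 without replicate 4).

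Of the 4 tested genes of the R-spondin and Lgr module, Lgr4 fell at day 1 and Rnf43, the ubiquitin ligase that removes Frizzled receptors, fell at day 3 (log2 -0.69 ± 0.24, adjusted p = 0.0421, and 0.12 without replicate 4 of day 0, with 7 libraries whose removal ended the call). This 1 call of 4 at each day stands beside 42.1% and 33.3% of all genes. Leaving out replicate 4 of day 0, Lgr4 alone was called at day 1, as lower, and Rspo3 alone at day 3, as higher, beside 34.5% and 25.9% of all genes. Znrf3, the paralog of Rnf43, was at 12.6 to 17.9 CPM at day 0 and passed at neither day (adjusted p of 0.243 and 0.968). Of the 5 secretion and removal genes, 2 rose and 2 fell at day 1 and 1 rose at day 3 (1 and 1, and 1, without replicate 4 of day 0), beside 42.1% and 33.3% of all genes called. Wls, the Wnt carrier, was at 254 to 275 CPM at day 0 and 187 to 226 CPM at day 1 (log2 -0.35 ± 0.13, adjusted p = 0.0432, and 0.102 without replicate 4 of day 0, with 9 libraries whose removal ended the call). Tmed2, a cargo receptor of the secretory pathway, was higher at day 1 (0.47 ± 0.17, adjusted p = 0.0427, and 0.0839 without that library, with 10 such libraries).

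Of 14 genes of the destruction complex and its transducers, 1 rose and 5 fell at day 1, Axin2 among the latter, and 3 rose and 1 fell at day 3, so 6 and 4 of 14 were called beside 42.1% and 33.3% of all genes. Leaving out replicate 4 of day 0, it was 1 and 2 at day 1 and 1 and 0 at day 3. Ctnnb1, which encodes beta-catenin, was at 521 to 560 CPM at day 0. On day 1 it was at 809 and 729 CPM with 3-digit names and 400, 387 and 402 CPM with 1-digit names, on either side of the day 0 range, and the mean over the 5 was 545 CPM (log2 0.01 ± 0.22, adjusted p = 0.975). Csnk1a1, a kinase of the complex, rose at both days (0.40, adjusted p = 0.0195, and 0.40, adjusted p = 0.0244), with 2 and 5 libraries whose removal ended the call (adjusted p up to 0.0575 and 0.0711), replicate 4 of day 0 not among them. Of 11 TCF/LEF factors and cofactors, 3 rose and 2 fell at day 1 and 2 rose and 1 fell at day 3, against 2 and 1 at day 1 and none at day 3 without replicate 4 of day 0. These 5 and 3 of 11 stand beside 42.1% and 33.3% of all genes. Pygo2, a beta-catenin cofactor, was among those that rose at both days (0.72 ± 0.12, adjusted p = 4.67e-04, and 0.32 ± 0.12, adjusted p = 0.0464), its day 3 call being lost without any of 11 libraries (0.0572 at 0.36 without replicate 4 of day 0). Tle3, a corepressor, did not pass (adjusted p of 0.107 and 0.845). It split by format at day 1, with 74.3 and 76.3 CPM in the 3-digit and 146, 195 and 147 CPM in the 1-digit libraries, and was called as lower with 3-digit names.

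Of 14 tested genes known as beta-catenin targets, 5 rose and 2 fell at day 1 (Axin2 and Notum), and 6 rose and 1 fell at day 3 (Rnf43), with medians of 0.18 and 0.40. The shares higher, 5 and 6 of 14, stand beside 23.3% and 19.5% of all genes. Leaving out replicate 4 of day 0, 5 rose and 1 fell at day 1 and 4 rose and none fell at day 3, and several of these genes also respond to other signals. Myc was at 5.44 to 9.37 CPM at day 0, 56.6 to 82.8 CPM at day 1 and 10.4 to 26.7 CPM at day 3, without overlap (log2 3.27 ± 0.28, adjusted p = 5.22e-06, and 1.5 ± 0.27, adjusted p = 0.00107). Ccnd1 was at 225 to 360 CPM at day 0 and 169 to 467 CPM at day 1 and did not pass at either day (adjusted p of 0.812 and 0.78). Further target genes were picked after their values were seen. Cd44 was at 1.26 to 2.82 CPM at day 0, 16.8 to 35.8 CPM at day 1 and 16.6 to 32.3 CPM at day 3 (log2 3.59 and 3.78, adjusted p = 4.77e-06 and 5.32e-06). Nkd2, a feedback inhibitor, was at 0.316 to 0.941 CPM at day 0 and 1.72 to 3.78 CPM at day 1 (log2 2.26 ± 0.42, adjusted p = 0.00111). Notum, a secreted enzyme that inactivates Wnt proteins, was at 22.6 to 30 CPM at day 0 and 7.48 to 16.1 CPM at day 1, without overlap (log2 -1.17 ± 0.32, adjusted p = 0.0107). Mmp7, at 0 to 0.363 CPM at day 0, was at 11.1 and 7.94 CPM in the 3-digit and 0.136 to 0.743 CPM in the other libraries of day 1, and at 0.450 to 5.39 CPM in the 3-digit and 14.2 and 17.3 CPM in the other libraries of day 3, so its order by format turned between the days (log2 4.41, adjusted p = 0.00188, and -2.17, adjusted p = 0.0448, the latter up to 0.15 with 1 library left out).

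Of 13 genes of beta-catenin-independent Wnt signalling, 3 rose and 5 fell at day 1 and 3 rose and 1 fell at day 3 (3 and 4, and 3 and 0, without replicate 4 of day 0), beside 23.3% of all genes higher and 18.7% lower at day 1 and 19.5% and 13.8% at day 3. Celsr2, a cadherin of planar cell polarity, fell at day 1 (-1.22 ± 0.19, adjusted p = 2.78e-04) and at day 3 (-0.50 ± 0.19, adjusted p = 0.0484, and 0.0811 without replicate 4 of day 0, with 8 libraries whose removal ended the day 3 call). Ryk, a Wnt receptor of the kinase family, rose at day 1 (0.41 ± 0.12, adjusted p = 0.0127) and was at -0.09 at day 3 (adjusted p = 0.562).

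**Figure D5:**
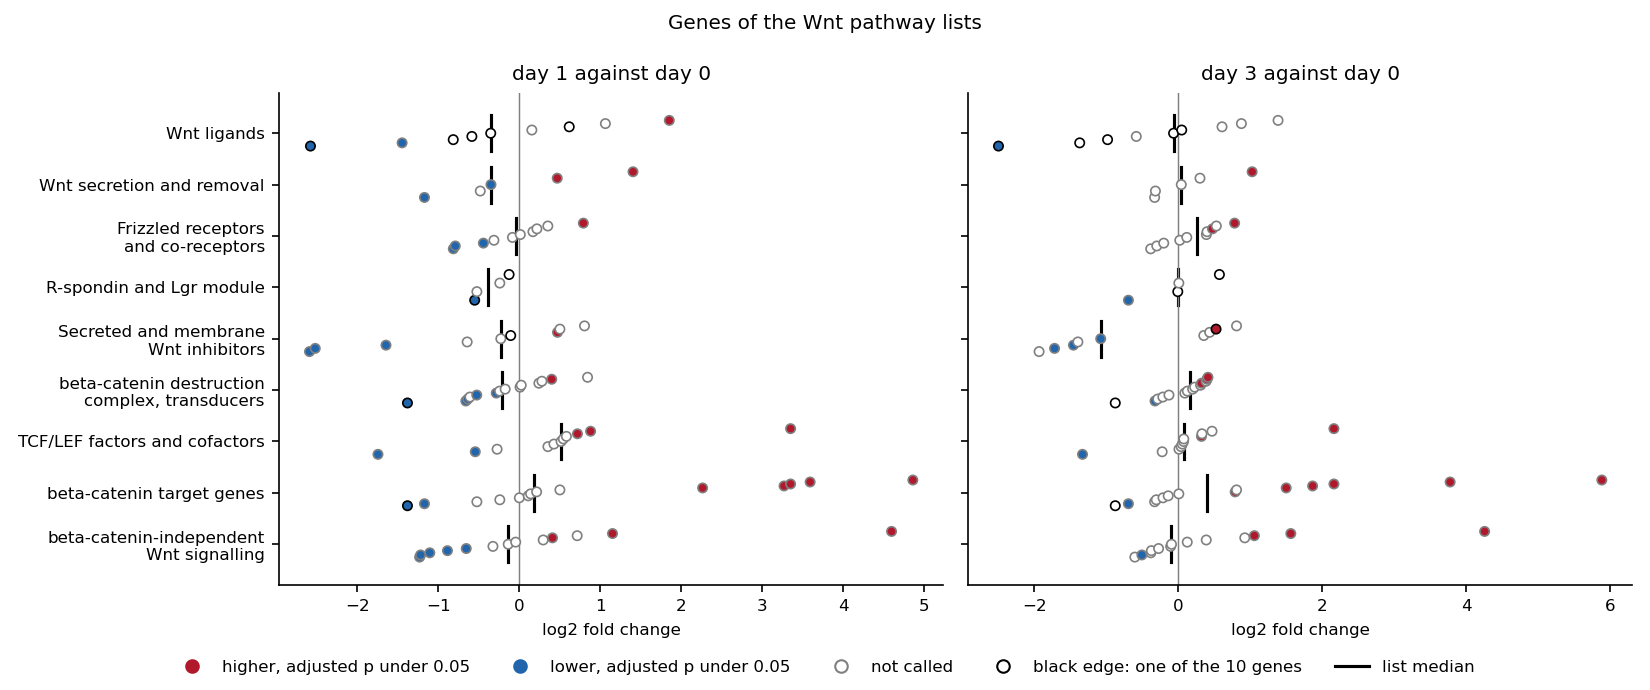
Log2 fold change of every tested gene of the 9 Wnt pathway lists at day 1 (left) and day 3 (right) against day 0. Points are genes, red for higher and blue for lower at an adjusted p under 0.05, open for the others, with a black edge for the genes described one by one, and the vertical bar is the list median. The inhibitor list has the lowest median at day 3, -1.07, and the target list holds red points far to the right at both days.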

How the data were processed

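Kidney RNA came from a TRIzol extraction and was sequenced after preparation with the TruSeq kit of Illumina. Per the labels, reads were processed with Trimmomatic and STAR on mm10, with versions and annotation not given. The deposited files hold raw read counts per gene in 3 columns: without strand, and for each strand. The third count was used, since it held 98.5% to 98.7% of stranded reads. The 4 rows that name no gene (29.0% to 38.3% of the counts) were left out of library sizes and tests.

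Libraries were grouped by day from the titles. Counts were tested with edgeR 4.0.16 (R 4.3.3; filterByExpr, TMM, glmQLFit, glmQLFTest) on all 14 libraries with the day as group, or with day and name format as 5 groups for comparisons between formats. P-values were adjusted by Benjamini-Hochberg over all tested genes, with a threshold of 0.05. The log2 CPM used a prior count of 2. Exact permutation tests used log2 CPM. On counts simulated for day 1 against day 0 over 14150 genes, the test recovered 73 of 100 genes changed by 1 and 95 of 100 changed by 2 on the log2 scale, with 3 false calls. The simulated spread was that within the 5 groups of day and name format, and no difference by format was simulated. In the real libraries such differences add to the spread of the day fit, so these figures may overstate how it performs.

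The genes and lists were chosen with earlier results of these data known. Named by rule were the 10 genes, the 2 most abundant others of each pathway list, every further ligand with a mean of at least 0.1 CPM, and the 3 genes most like each member. Alternatives were no filter, a count minimum of 10, size factors, library totals, DESeq2 1.42.0, the count without strand, only the 2 days compared, format as a term, only 1 format, a replicate block, and each library left out. Gene positions and exon lengths came from GENCODE M21 (GRCm38, the build called mm10), which may differ from the annotation the authors used. Counting error is larger for genes with few reads, and limits for a count of 0 cover counting error only. No pair of libraries in a group agreed within sampling noise.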

Additional observations from a re-analysis of the deposited data

Results flagged for a closer look

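In groups of 4 or 5 libraries, 9 values lay apart from the rest of their group by more than Dixon's 95% limit, among 66 groups tested, of which chance gives about 3.3. In replicate 4 of day 0 these were Wnt4 (7.56 CPM, against 1.20 to 1.44 CPM in the others), Wnt7b (40.1 against 14.2 to 16.9), Wnt9b (22.7 against 6.06 to 7.01), Axin2 (3.26 against 0.823 to 1.20), Rspo3 (2.06 against 0.0588 to 0.316) and the summed urothelium list (56.2 against 3.94 to 12.1 CPM). In replicate 2 of day 1 they were Wnt4 (11.5 against 1.60 to 3.86 CPM) and the urothelium list (107 against 5.04 to 17.8 CPM). Wnt2b was low in replicate 2 of day 3 (0.0563 against 0.134 to 0.153 CPM), a value of 1 read. The effect of the name format on Wnt5a differed between the days, with a difference of -2.05 on the log2 scale (day 3 minus day 1, adjusted p = 0.00537).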

How the results depend on the processing

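Wnt9b kept its direction and its call against day 0 at both days under every alternative run and with every library left out, with log2 changes from -2.77 to -1.90 and from -3.09 to -1.82 over the libraries left out. The 22 calls made in 90 tests (9 genes in 10 comparisons) kept their direction in every fit, and 140 of 151 alternative fits and 280 of 308 fits without 1 library kept the call. All reversals below are of values that did not pass the test, and the cause of the changes was not tested.

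Counts of the 9 genes called changed as follows. At day 3 against day 0 (2 called) the count was 1 with no low-count filter, 4 with only these 2 days, 1 with only 3-digit names and 1 with the replicate block. Between day 3 and day 1 (2 called) it was 0 of 8 tested by edgeR with only these 2 days (2 at an unadjusted p under 0.05, and 2 called by DESeq2 on all libraries), 4 with only 1-digit names and 1 with only 3-digit names. For the difference of the format effects (1 called) it was 2 with DESeq2. Leaving out 1 library gave 1 to 3 at day 3 against day 0, 0 to 3 at day 3 against day 1, 1 to 5 for the format at day 1, 0 to 2 for the format at day 3, 1 to 2 for their difference and 0 to 1 for day 3 against day 1 within 3-digit names. The counts of 0 came without replicate 4 of day 1 or of day 3 (each 2 at an unadjusted p under 0.05), without replicate 5 of day 3 (1) and, within 3-digit names, without replicate 1 (2) or 2 (1) of day 1, where DESeq2 on all libraries called 2, 1 and 1.

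With the replicate number as a block, signs turned for Rspo3 at day 1 (0.2332), Wnt5a (0.1249) and Lgr4 (0.0329) at day 3, and Wnt9b between day 3 and day 1 (-0.06293), and the call of Axin2 at day 1 (-1.305, adjusted p = 0.0846) and of Dkk3 at day 3 (0.4306, adjusted p = 0.0844) was lost. The replicate numbers are shared between groups, but deviations of same-numbered libraries correlated at -0.175 to 0.261, over 0.1 in 4 of 13 pairs, so they were not read as pairs.

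With name format as a term, signs turned for Wnt4 (-0.08492), Rspo3 (0.3556) and Dkk3 (0.08982) at day 1, Wnt4 at day 3 (-0.7529) and Wnt9b between day 3 and day 1 (-0.1785). With only 1-digit names they turned for Wnt4 (-0.2299), Wnt11 (0.1122) and Dkk3 (0.0865) at day 1, Wnt4 (-0.4876) and Lgr4 (0.07356) at day 3, and Wnt9b (-0.4313) between day 3 and day 1. With only 3-digit names they turned for Wnt5a (0.151) and Wnt7b (0.216) at day 1, Wnt5a (0.08773) and Rspo3 (-0.5496) at day 3, and Wnt5a (-0.06331), Wnt11 (1.548) and Rspo3 (-0.4545) between day 3 and day 1. By library totals without TMM they turned for Wnt5a (0.07624) and Lgr4 (0.1272) at day 3 and, within 1-digit names at day 1, for Wnt11 (-0.02684) and Dkk3 (-0.05215). With DESeq2 Rspo3 turned by format at day 1 (-0.01003).

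Ranges over the libraries left out crossed 0 at day 1 for Wnt4 (-0.1548 to 1.757), Wnt7b (-0.6759 to 0.128) and Rspo3 (-0.5049 to 1.805), and at day 3 for Wnt4 (-0.3201 to 1.189), Wnt5a (-0.2321 to 0.09213) and Lgr4 (-0.1089 to 0.07206). Between day 3 and day 1 they did so for Wnt4 (-0.9084 to 0.2053) and Wnt9b (-0.4843 to 0.2766). By format they did so at day 1 for Rspo3 (-0.3507 to 0.5677), at day 3 for Axin2 (-0.1246 to 0.1751), Lgr4 (-0.3245 to 0.135) and Wnt11 (-1.089 to 0.05492), and in the difference of the effects for Wnt4 (-1.42 to 0.4673) and Wnt9b (-0.2153 to 0.742). Within 1-digit names they did so at day 1 for Rspo3 (-0.665 to 1.783), Wnt11 (-0.0979 to 0.2596) and Wnt4 (-0.757 to 0.8773), at day 3 for Lgr4 (-0.1786 to 0.2835), Wnt4 (-1.366 to 0.6301) and Wnt5a (-0.8462 to 0.08683), and between the days for Wnt4 (-1.105 to 0.2705) and Wnt7b (-0.7605 to 0.05844). Within 3-digit names they did so between the days for Axin2 (-0.1745 to 0.3817), Wnt4 (-1.679 to 0.2207), Wnt5a (-0.2818 to 0.2015) and Wnt9b (-0.6497 to 0.3256).

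Over all genes, 8119 in place of 4757 were called at day 3 against day 0 with only 1-digit names, and between day 3 and day 1 831 with only these 2 days and 5193 with only 1-digit names in place of 2276. Leaving out 1 library changed the 5001 calls by format at day 1 to 1996 (without replicate 2 of day 1) and the 2645 at day 3 to 4771, 1176, 1144 and 91 (without replicates 1, 2, 3 and 5 of day 3). The 2276 between day 3 and day 1 became 1269 to 1460 without replicate 3, 4 or 5 of day 1 or 1 or 3 of day 3. The 1988 within 3-digit names became 233 and 746 without replicate 1 or 2 of day 1 and 1309 without replicate 3 of day 3, the 4571 within 1-digit names 2794 without replicate 4 of day 3, and the 2510 for the difference of the effects 1260 and 1611 without replicate 1 or 2 of day 1. By library totals the share of higher calls was 35.0% in place of 51.9% for the difference of the effects, and 74.0% in place of 51.6% and 65.4% in place of 53.9% between day 3 and day 1 within 1-digit and 3-digit names. The median of all genes was then -0.19 in place of -0.02 for the difference of the effects, and within 1-digit names -0.16 in place of -0.05 at day 1, 0.16 in place of 0.05 at day 3 and 0.26 in place of 0.04 between these days. Depth limits Wnt2b, Wnt11, Axin2 and Rspo3, which had 0 to 54 reads in a library.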
